A study of Homo sapiens with 6 samples.

Results

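The integrin and laminin genes are 38 rows among the 17100 transcripts of the deposited table, matched by their symbols: 18 integrin alpha chains, 8 integrin beta chains and 12 laminin chains. These families were chosen with earlier results of these data known. They were followed in MDA-MB-231, an established human breast adenocarcinoma cell line, with 3 vehicle libraries and 3 from cells kept in 1 µM guadecitabine (SGI-110) for 96 h and then without it for another 24 h. Guadecitabine is a prodrug of decitabine, a nucleoside that is built into new DNA and traps the enzymes that methylate it. RNA came from 3 independent experiments with this single cell line.

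Integrins are receptors of an alpha and a beta chain that bind the extracellular matrix or other cells on the outside and, through talin and kindlin, the actin cytoskeleton on the inside. Laminins are cross-shaped trimers of an alpha, a beta and a gamma chain and form the sheet on which basement membranes are built. In epithelia the integrins alpha3beta1 and alpha6beta4 bind laminins that carry the alpha3 chain and hold the cell layer to its basement membrane.

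Library totals ranged from 17602570 to 22277442 counts in vehicle and from 8792127 to 21410849 in guadecitabine, where replicate 2 was the smallest library. Vehicle replicate 3 stood apart from the other libraries, since 2782 transcripts that were nearly absent (1 count or none) from the other vehicle libraries had a median of 7.78 counts per kb of exon in it. Values that rest on it are given with and without it. VIM, a mesenchymal marker of this line, had at least 32223 counts in each library, while the hormone receptor genes ESR1 and PGR, which this line lacks, had at most 1 count in each library except vehicle replicate 3, with 67 and 43 counts. Levels are given below as normalized reads per kb, that is, counts scaled by edgeR's TMM factors to the mean library total and divided by the exon length counted, in kb. Changes are log2 fold changes of guadecitabine over vehicle with their standard error and the adjusted p of edgeR's quasi-likelihood test over all 13322 genes tested. Of 8 identity genes of the line, 6 were tested, and 83.3% of these changed at an adjusted p of 0.05, against 37.7% of all genes tested. VIM and CD44 were higher after guadecitabine, AXL (log2 fold change -1.27), EPCAM and ERBB2 were lower, and KRT18 did not pass the test.

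Of the 38 genes, 27 had enough counts to be tested, and 15 of these changed at an adjusted p of 0.05, 8 higher and 7 lower after guadecitabine. Over all genes tested the share was 37.7%, with 19.3% higher and 18.4% lower. Fewer cells of a kind and less RNA per cell cannot be told apart in such bulk samples. The median log2 fold change was 0.06 for the 27 genes and 0.02 for all genes tested. In these 15 genes, and in ITGB8, which was not called, the 3 guadecitabine libraries all lay above or all below the 3 vehicle libraries, while over all genes tested this held for 26.6% with guadecitabine higher and 25% with it lower. Without vehicle replicate 3, 11 of the integrin and laminin genes were higher and 8 lower, against 22.6% and 19.4% of all genes tested. For any single gene the two-sided exact permutation test of 3 against 3 libraries cannot go below p = 0.1. ITGB6, ITGB7 and LAMA1 reached the filter in all 3 guadecitabine libraries but in vehicle only in replicate 3. Without that library they were tested through guadecitabine libraries alone, and they are among the 11 higher genes.

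**Figure D1:**
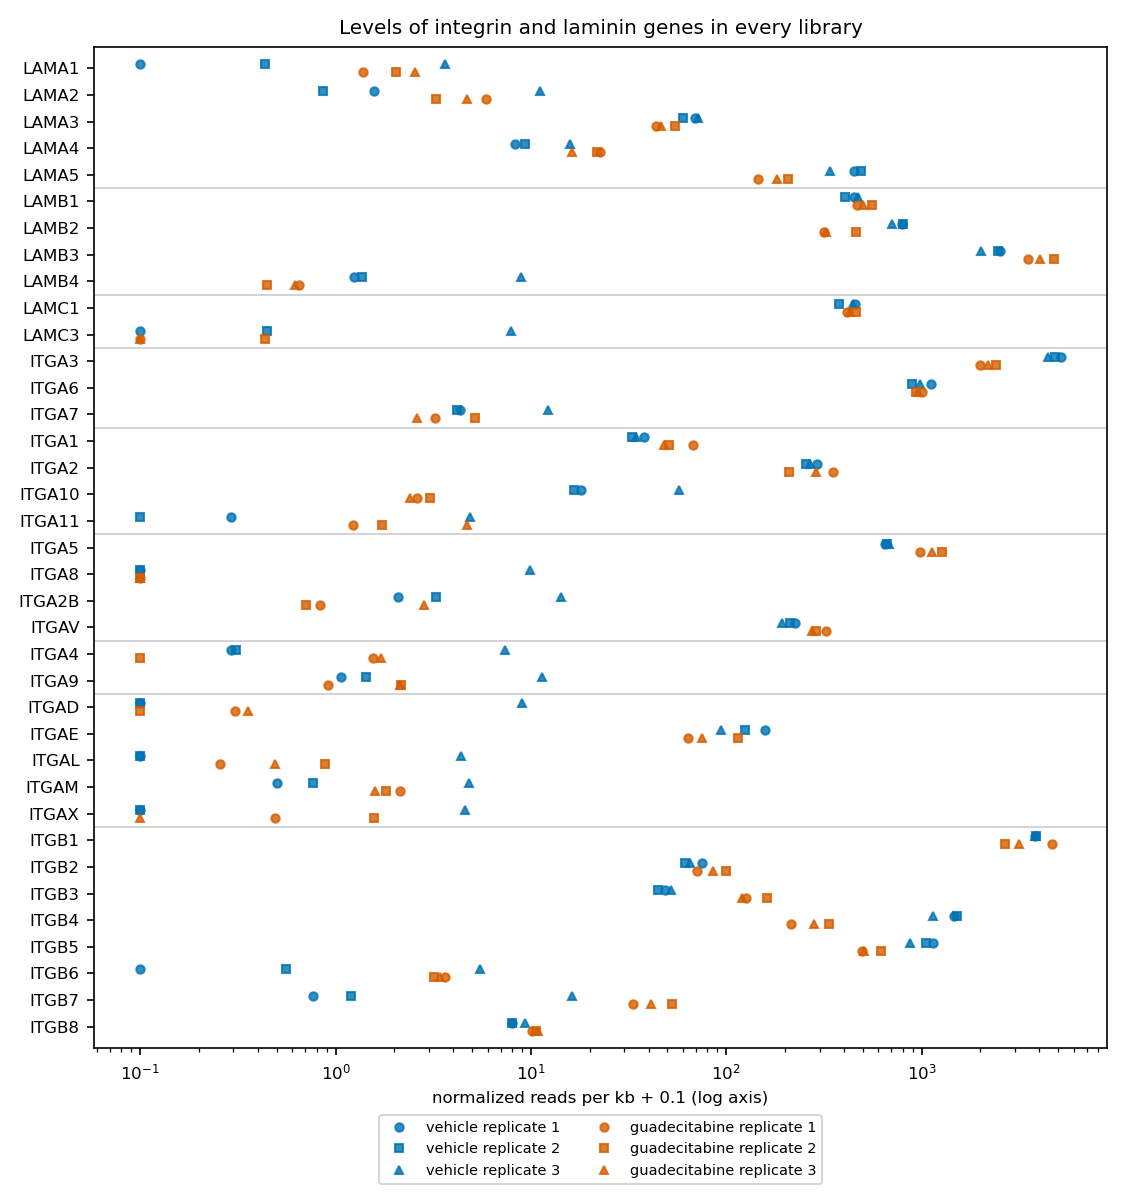
Normalized reads per kb plus 0.1, on a log axis, for 37 of the 38 genes in the 3 vehicle (blue) and 3 guadecitabine (orange) libraries, with lines between groups of chains. ITGB4 moved from 1372 to 276 reads per kb on average, while for the 11 genes that were not tested the highest level was that of vehicle replicate 3.

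LAMB3, the laminin beta3 chain (NM_000228, chromosome 1 from 209788218 to 209825820 on the minus strand of hg19), rose, and in vehicle it was already the most abundant laminin transcript. Its level went from 2504, 2445 and 2018 reads per kb in vehicle to 3502, 4770 and 4028 after guadecitabine. The groups did not overlap, and the log2 fold change was 0.82 ± 0.137 (SE, adjusted p = 0.00163).

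LAMA3, an alpha chain that assembles with the beta3 chain (NM_001127717, chromosome 18 from 21269407 to 21535029 on the plus strand), did not rise with it. It had 69.3, 59.7 and 71.8 reads per kb in vehicle and 43.8, 54.7 and 46.3 after guadecitabine, a log2 fold change of -0.48 ± 0.125 (SE, adjusted p = 0.0151). The call was lost without vehicle replicate 1 (adjusted p = 0.0648) and without guadecitabine replicate 3 (adjusted p = 0.0710). The row counts the exons of a long transcript of 10492 bp, and the annotation holds 10 protein-coding LAMA3 transcripts of 462 to 10651 bp, so that the level per kb of LAMA3 would be too low where a shorter transcript is the main one. Within each library, the ratio of LAMB3 to LAMA3 reads per kb went from 36.1, 41.0 and 28.1 in vehicle to 79.9, 87.2 and 87.0 after guadecitabine. Such ratios do not depend on the scaling of the libraries.

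**Figure D2:**
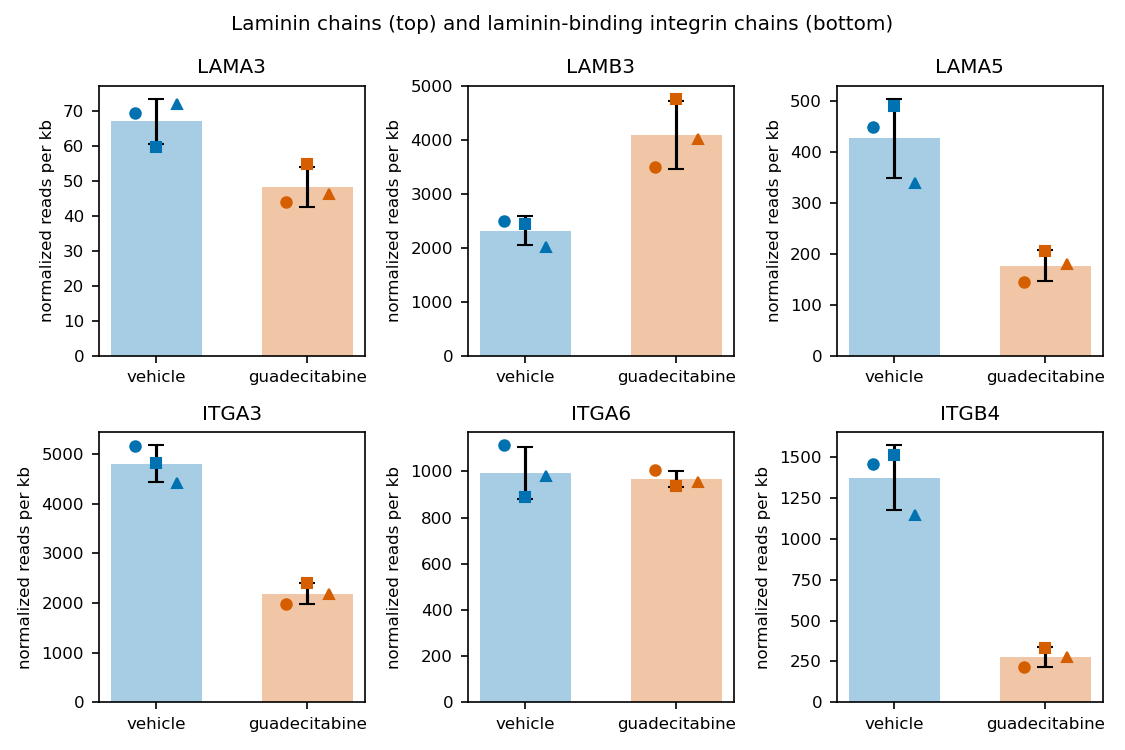
Normalized reads per kb of the laminin chains LAMA3, LAMB3 and LAMA5 (top) and of the integrin chains ITGA3, ITGA6 and ITGB4 (bottom) in vehicle (blue) and guadecitabine (orange); points are single libraries, bars are means and whiskers are SD (n = 3). LAMB3 was higher and LAMA3, LAMA5, ITGA3 and ITGB4 were lower after guadecitabine, while the ITGA6 groups overlapped.

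Among the other laminin chains, LAMA5 and LAMB2 fell, LAMA4 rose and LAMB1 and LAMC1 did not pass the test. LAMA5, the alpha5 chain of most adult basement membranes, had 451, 491 and 340 reads per kb in vehicle and 145, 206 and 182 after guadecitabine. All guadecitabine libraries were lower, with a log2 fold change of -1.27 ± 0.171 (SE, adjusted p = 0.000479). LAMB2, the beta2 chain of the neuromuscular and kidney basement membranes, fell from 795, 807 and 705 to 315, 460 and 325 reads per kb, a log2 fold change of -1.07 ± 0.154 (SE, adjusted p = 0.000700). The beta1 and gamma1 chains, which occur in the largest number of laminins, did not pass the test, with log2 fold changes of 0.20 ± 0.111 (SE) for LAMB1 and 0.03 ± 0.110 (SE) for LAMC1. LAMB3 was 65.5% ± 2.19 of the 4 laminin beta chain transcripts per kb in vehicle and 82.4% ± 0.608 after guadecitabine (SD, n = 3). The share of LAMA5 among the 5 alpha chain transcripts was 83.2% ± 5.55 in vehicle and 70.1% ± 3.28 after guadecitabine (SD, n = 3).

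LAMA4, the alpha4 chain known from vessel walls and muscle, had 8.16, 9.19 and 15.8 reads per kb in vehicle and 22.5, 21.6 and 16.2 after guadecitabine. The lowest guadecitabine library and vehicle replicate 3 nearly met, and the log2 fold change was 0.85 ± 0.277 (SE, adjusted p = 0.0377). The call was lost without any one of the other 5 libraries (adjusted p from 0.0528 to 0.120) and with library totals as the only scaling (adjusted p = 0.0518), while without vehicle replicate 3 the log2 fold change was 1.21 (adjusted p = 0.00156). LAMA1, the alpha1 chain of the embryo, had 0, 3 and 43 counts in vehicle and 15, 9 and 23 after guadecitabine, and LAMA2, the alpha2 chain of muscle, had 15, 7 and 138 against 69, 15 and 44. Neither passed the test with all libraries, with log2 fold changes of 0.50 ± 1.10 (SE) and 0.03 ± 0.819 (SE). Without vehicle replicate 3 the log2 fold changes were 3.43 for LAMA1 (edgeR, adjusted p = 0.00521) and 2.04 for LAMA2 (adjusted p = 0.00224). With the background of that library subtracted instead, LAMA1 passed the test (4.05, edgeR, adjusted p = 0.00590). LAMA2 did not pass it there (0.82 ± 0.601 SE, adjusted p = 0.300). The LAMA1 value without vehicle replicate 3 rests on few counts, since the vehicle libraries left had 0 and 3 counts.

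**Figure D3:**
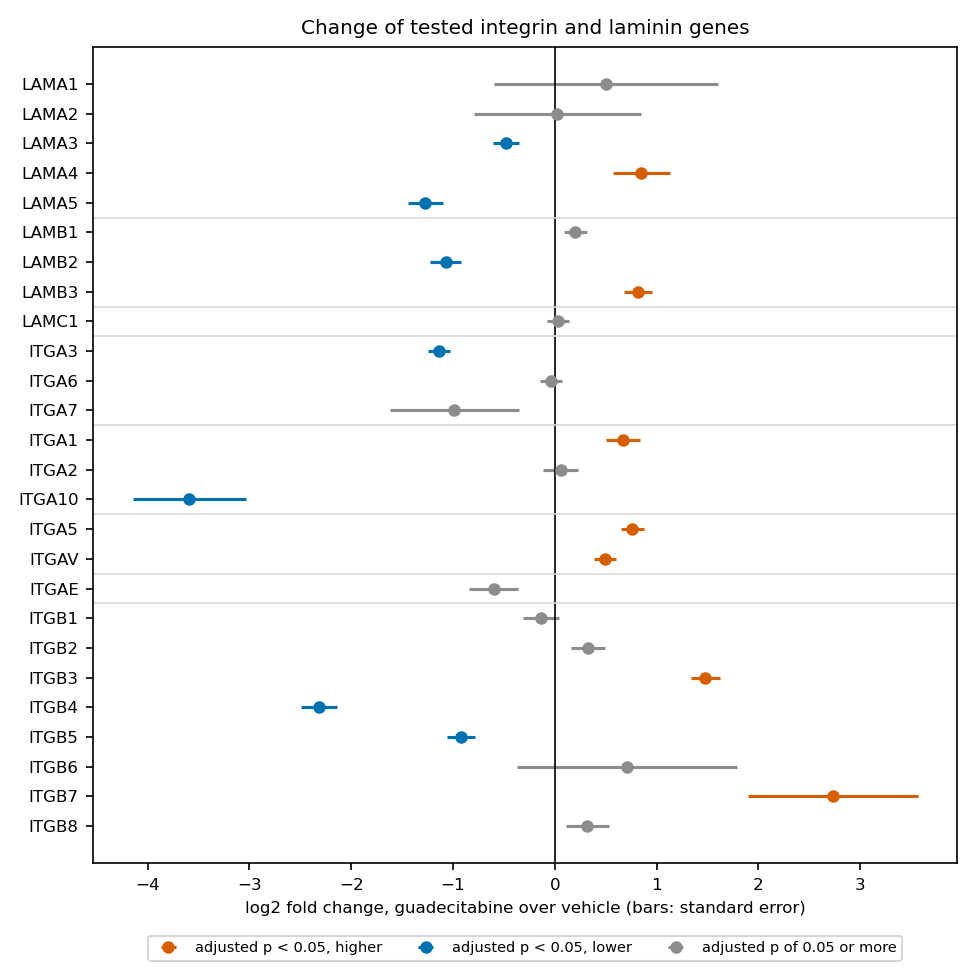
Log2 fold change of guadecitabine over vehicle with its standard error for 26 of the 27 tested genes, in orange and blue for an adjusted p under 0.05 (edgeR) and in grey otherwise, with lines between groups of chains. The plotted values run from -3.59 for ITGA10 to 2.73 for ITGB7.

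Among the integrin chains that bind laminin, ITGA3 and ITGB4 fell and ITGA6 did not pass the test. ITGB4, the beta4 chain that anchors hemidesmosomes (NM_000213, chromosome 17 from 73717516 to 73753899 on the plus strand), had 1459, 1512 and 1146 reads per kb in vehicle and 214, 335 and 280 after guadecitabine. The groups were far apart, with a log2 fold change of -2.32 ± 0.179 (SE, adjusted p = 2.00e-05), or 4.98-fold lower. ITGA3, the alpha3 chain (NM_002204, chromosome 17 from 48133340 to 48167849 on the plus strand), was the most abundant of the 38 transcripts per kb in vehicle. It went from 5163, 4830 and 4425 reads per kb to 1978, 2400 and 2190, a log2 fold change of -1.13 ± 0.108 (SE, adjusted p = 6.62e-05). ITGA6, the partner of the beta4 chain, had 993 ± 113 and 967 ± 36.1 reads per kb (SD, n = 3), with a log2 fold change of -0.04 ± 0.109 (SE, adjusted p = 0.810). The ratio of ITGB4 to ITGA6 reads per kb was 1.31, 1.70 and 1.17 in vehicle and 0.213, 0.357 and 0.293 after guadecitabine. ITGA7, the laminin receptor chain of muscle, was low in all libraries, at most 12.2 reads per kb, and its log2 fold change was -0.99 ± 0.636 (SE, adjusted p = 0.252), and -0.32 (adjusted p = 0.556) without vehicle replicate 3, which had 57 counts against 16 and 14 in the other vehicle libraries.

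Of the chains that read the RGD motif of fibronectin and vitronectin, ITGA5, ITGAV and ITGB3 rose and ITGB5 fell. ITGA5, the fibronectin receptor chain, had 648, 663 and 678 reads per kb in vehicle and 982, 1269 and 1123 after guadecitabine, a log2 fold change of 0.76 ± 0.114 (SE, adjusted p = 0.000909). ITGAV, the alpha chain shared by several RGD receptors, went from 224, 212 and 193 to 323, 287 and 276 reads per kb, a log2 fold change of 0.50 ± 0.111 (SE, adjusted p = 0.00732). Its beta partners changed in opposite directions. ITGB3, the beta3 chain of the vitronectin receptor and of platelets, had 48.3, 44.7 and 52.1 reads per kb in vehicle and 126, 162 and 120 after guadecitabine, a log2 fold change of 1.48 ± 0.142 (SE, adjusted p = 6.62e-05). ITGB5, the beta5 chain, went from 1137, 1049 and 874 to 493, 617 and 508 reads per kb, a log2 fold change of -0.92 ± 0.135 (SE, adjusted p = 0.000790). ITGB5 still had the higher level, and the ratio of ITGB3 to ITGB5 was 0.0482 ± 0.00987 in vehicle and 0.251 ± 0.0135 after guadecitabine (SD, n = 3). The ITGB3 exons share 2266 bases with a readthrough gene annotated on the same strand, whose reads cannot be told apart there.

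ITGB8, another partner of the alphaV chain, had 7.91, 7.92 and 9.27 reads per kb in vehicle and 10.0, 10.6 and 10.8 after guadecitabine, and its log2 fold change of 0.32 ± 0.213 (SE) did not pass the test. ITGB6, the epithelial partner that binds latent TGF-beta, had 0, 2 and 32 counts in vehicle and 20, 7 and 15 after guadecitabine. With all libraries the log2 fold change was 0.71 ± 1.08 (SE, adjusted p = 0.641), and without vehicle replicate 3 it was 3.77 ± 0.736 (SE, adjusted p = 0.00232). The latter value rests on few counts, since the vehicle libraries left had 0 and 2 counts. ITGB1, the beta chain that pairs with the largest number of alpha chains, had 3814, 3839 and 3805 reads per kb in vehicle and 4628, 2681 and 3143 after guadecitabine, so that the vehicle libraries lay inside the range of the guadecitabine libraries. Its log2 fold change was -0.13 ± 0.178 (SE, adjusted p = 0.592), while without guadecitabine replicate 1 it was -0.39 (adjusted p = 0.0213). As a share of the 8 beta chain transcripts per kb, ITGB1 was 60.3% ± 2.96 in vehicle and 75.2% ± 7.63 after guadecitabine, and ITGB4 was 21.6% ± 2.11 and 6.33% ± 2.32 (SD, n = 3).

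The collagen-binding alpha chains showed each kind of outcome. ITGA10, known from cartilage, had 91, 76 and 359 counts in vehicle and 15, 7 and 11 after guadecitabine, a log2 fold change of -3.59 ± 0.555 (SE, adjusted p = 0.00107). Vehicle replicate 3 carried most of the vehicle level, and without it the log2 fold change was -2.76 (adjusted p = 2.64e-05). ITGA1, the collagen IV receptor chain, went from 37.6, 32.7 and 34.5 to 67.3, 50.8 and 47.6 reads per kb, a log2 fold change of 0.67 ± 0.167 (SE, adjusted p = 0.0126), and without vehicle replicate 2 the adjusted p was 0.0502 (edgeR). In the annotation 499 bases of its exons also belong to PELO on the same strand, whose own log2 fold change was 0.45 (adjusted p = 0.00621). PELO had a mean of 511 reads per kb in vehicle and 697 after guadecitabine, against 34.9 and 55.2 for ITGA1. Reads from the shared bases cannot be told apart, and how much of the ITGA1 level and rise came from PELO was not tested. ITGA2, the main collagen receptor chain of epithelial cells, had 272 ± 18.9 and 282 ± 71.2 reads per kb (SD, n = 3) and a log2 fold change of 0.06 ± 0.172 (SE, adjusted p = 0.810). ITGA11, a fibroblast chain, was not tested.

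ITGB7, the beta7 chain of lymphocytes that home to the gut (NM_000889, chromosome 12 from 53585102 to 53601091 on the minus strand), had 2, 3 and 60 counts in vehicle and 118, 74 and 116 after guadecitabine. This is 0.664, 1.10 and 16.2 reads per kb in vehicle and 33.3, 52.5 and 40.8 after guadecitabine, so that vehicle replicate 3 lay between the other vehicle libraries and the guadecitabine libraries. The log2 fold change was 2.73 ± 0.836 (SE, adjusted p = 0.0299) with all libraries and 5.49 ± 0.422 (SE, adjusted p = 5.20e-06) without vehicle replicate 3. The latter value rests on few vehicle counts, since the vehicle libraries left had 2 and 3 counts. Without any one of the other 5 libraries the adjusted p was 0.0510 to 0.0959 (edgeR), and the Wald test of DESeq2 gave 0.0602. In the GENCODE annotation 1881 bases of the ITGB7 exons also belong to ZNF740 on the opposite strand, though the deposited rows of the 2 genes do not overlap, and the library kit does not mark strand, so that reads from such bases cannot be told apart. ZNF740 had 524, 554 and 584 counts in vehicle and 454, 181 and 359 after guadecitabine, and fell by 0.48 on the log2 scale (adjusted p = 0.0136).

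Of the alpha partners of the beta7 chain, ITGAE did not pass the test and ITGA4 had too few counts for it. ITGAE, which pairs with the beta7 chain on lymphocytes in epithelium, had 158, 125 and 94.4 reads per kb in vehicle and 64.0, 114 and 75.3 after guadecitabine, with a log2 fold change of -0.60 ± 0.240 (SE, adjusted p = 0.0789). It passed the test without vehicle replicate 3 (-0.77, edgeR, adjusted p = 0.0189) and without guadecitabine replicate 2 (-0.85, adjusted p = 0.0159). In the annotation 427 bases of the ITGAE exons also belong to HASPIN on the opposite strand, and reads from such bases cannot be told apart. ITGA4 had 1, 1 and 47 counts in vehicle and 9, 0 and 8 after guadecitabine and was not tested. ITGB2, the common beta chain of leukocyte integrins, had 67.4 ± 6.96 reads per kb in vehicle and 85.3 ± 14.3 after guadecitabine (SD, n = 3). Its log2 fold change was 0.33 ± 0.166 (SE, edgeR, adjusted p = 0.151), and it passed the test without guadecitabine replicate 1 (0.45, adjusted p = 0.0435). The alpha partners of ITGB2, namely ITGAL, ITGAM, ITGAX and ITGAD, had at most 12 counts in any library other than vehicle replicate 3. Of 16 leukocyte and platelet markers, 11 were read from the table and 4 tested. Of these 4, 75% changed at an adjusted p of 0.05, against 37.7% of all genes tested. LAPTM5 and GP1BA were higher and CSF1R was lower, while CD14 did not pass the test (log2 fold change 0.12). The summed level of the 11 markers was 1461 to 1816 reads per kb in vehicle and 2674 to 2757 after guadecitabine, most of it from LAPTM5 alone, with a mean of 1410 and 2528. The 7 markers that were not tested summed to 1.11, 6.56 and 58.1 reads per kb in vehicle and to 6.89 to 9.21 after guadecitabine. PTPRC, which marks all leukocytes, had 0, 2 and 36 counts in vehicle and 3, 0 and 2 after guadecitabine, and CD2, MS4A1 and GP9 were at 0 in each library other than vehicle replicate 3.

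The 11 genes that were not tested were ITGA2B, ITGA4, ITGA8, ITGA9, ITGA11, ITGAD, ITGAL, ITGAM, ITGAX, LAMB4 and LAMC3. All 11 had their highest level in vehicle replicate 3, where they had 24 to 88 counts, or 5.57 to 18.3 counts per kb. The transcripts that were nearly absent from vehicle replicates 1 and 2 had quartiles of 5.46 and 11.3 counts per kb there, and ITGA2B, ITGA9, ITGA8, ITGAD and LAMB4 lay above the upper one. In the other 5 libraries they had at most 23 counts, the value of ITGA11 in guadecitabine replicate 3. ITGA8 had 88 counts in vehicle replicate 3 and 0 in each other library. A count of 0 allows up to 3 counts in a library, a limit that covers counting error only.

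**Figure D4:**
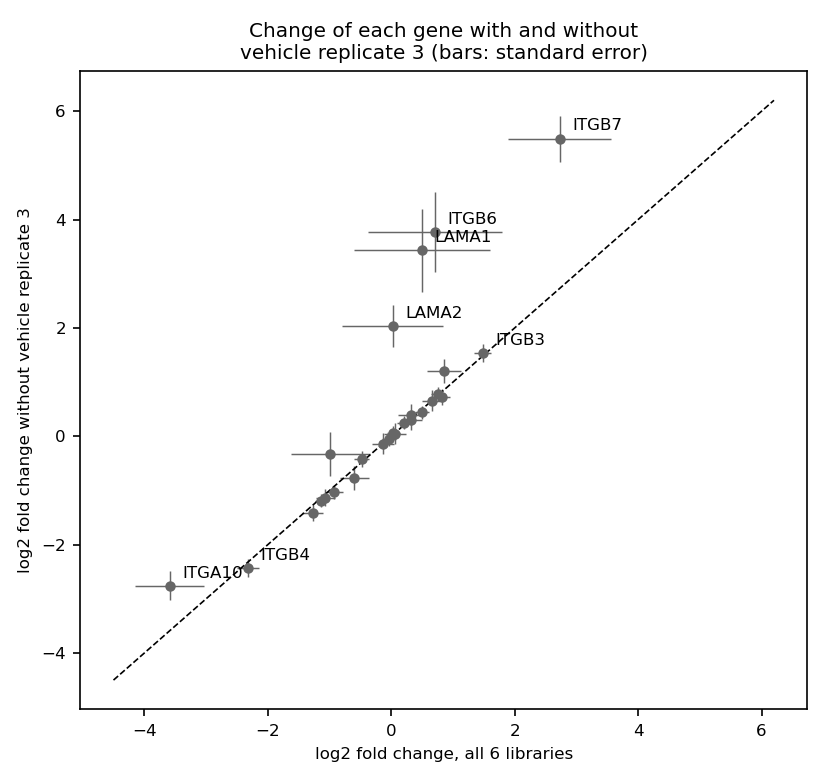
Log2 fold change of 26 of the 27 tested genes with all 6 libraries (horizontal axis) and without vehicle replicate 3 (vertical axis), with standard errors and a dashed line of equal values. ITGB7, ITGB6, LAMA1 and LAMA2 lie far above the line, with 5.49, 3.77, 3.43 and 2.04 without that library, while ITGB3 and ITGB4 lie close to it. The values of ITGB7, ITGB6 and LAMA1 without that library rest on few vehicle counts.

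The proteins that couple integrins to actin were followed as a list of 33 genes, of which 32 were tested and 9 were higher and 7 lower (50% called, against 37.7% of all genes tested), with a median log2 fold change of -0.06. FERMT3, the kindlin of blood cells that switches integrins on, had 16.3, 22.9 and 22.7 reads per kb in vehicle and 921, 1238 and 1096 after guadecitabine, a log2 fold change of 5.71 ± 0.185 (SE, adjusted p = 1.10e-07). This brought it from below FERMT2, the kindlin of adherent cells, at 319 ± 13.2 and 326 ± 77.1 reads per kb (SD, n = 3), to above it. The kinase SRC rose by a log2 fold change of 1.48 (adjusted p = 0.000159), and the adaptor LIMS1 by 0.60 (adjusted p = 0.00660). The parvin PARVB had 2, 2 and 3 counts in vehicle and 36, 8 and 19 after guadecitabine. Its log2 fold change of 3.29 (edgeR, adjusted p = 0.00437) rests on few counts, since vehicle was at 3 counts or fewer. PARVB reached the filter through guadecitabine libraries alone. The tensins TNS1 and TNS3 fell, with log2 fold changes of -1.99 and -1.21, as did the paxillin relative TGFB1I1 at -1.15 and the actin crosslinker ACTN4 at -0.99 (adjusted p of at most 0.00289). For TNS1 the log2 fold change without vehicle replicate 3 was -1.64. The focal adhesion kinase gene PTK2 and the paxillin gene PXN did not pass the test, with log2 fold changes of -0.10 and -0.14.

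Of 26 ligands, basement membrane partners and other surface partners, 25 were tested, 5 were higher and 9 lower (56% called, against 37.7% of all genes tested), and the median log2 fold change was -0.31, against 0.02 over all genes tested. The 4 largest falls were those of BCAM, TNC, CDH1 and HSPG2. HSPG2, which encodes perlecan, went from 206, 217 and 183 to 65.1, 85.1 and 65.7 reads per kb, a log2 fold change of -1.50 (adjusted p = 5.05e-05). BCAM, a receptor for the laminin alpha5 chain, went from 327, 363 and 289 to 70.0, 119 and 100 reads per kb, a log2 fold change of -1.79 (adjusted p = 0.000107). TNC, the matrix protein tenascin-C, changed by -1.67 on the log2 scale (adjusted p = 0.000109). CDH1, a ligand of the alphaEbeta7 integrin, changed by -1.62 (adjusted p = 0.0313), a call that was lost without vehicle replicate 1 or any guadecitabine library (adjusted p from 0.0614 to 0.114) and with no filter (adjusted p = 0.0544). Without vehicle replicate 3 the change was -1.14. The 4 largest rises were those of SPP1, ICAM1, NID2 and VCAM1. ICAM1, a ligand of the leukocyte integrins, had 601, 564 and 608 reads per kb in vehicle and 4586, 5914 and 5130 after guadecitabine, a log2 fold change of 3.14 (adjusted p = 3.45e-07), and VCAM1, a ligand of the alpha4 integrins, rose by 2.04 (adjusted p = 6.44e-05). NID2, a laminin-binding nidogen, rose by 2.36 (adjusted p = 0.0157) and by 3.91 without vehicle replicate 3, while without guadecitabine replicate 3 the adjusted p was 0.0598. SPP1, which encodes the RGD ligand osteopontin, had 0, 0 and 6 counts in vehicle and 33, 13 and 14 after guadecitabine, with a log2 fold change of 3.60 (adjusted p = 0.0226), a call that was lost without any library other than vehicle replicate 3 (adjusted p from 0.0634 to 0.0890). With no filter the adjusted p was 0.0934, and SPP1 reached the filter through guadecitabine libraries alone. Without vehicle replicate 3 its vehicle counts are all 0.

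**Figure D5:**
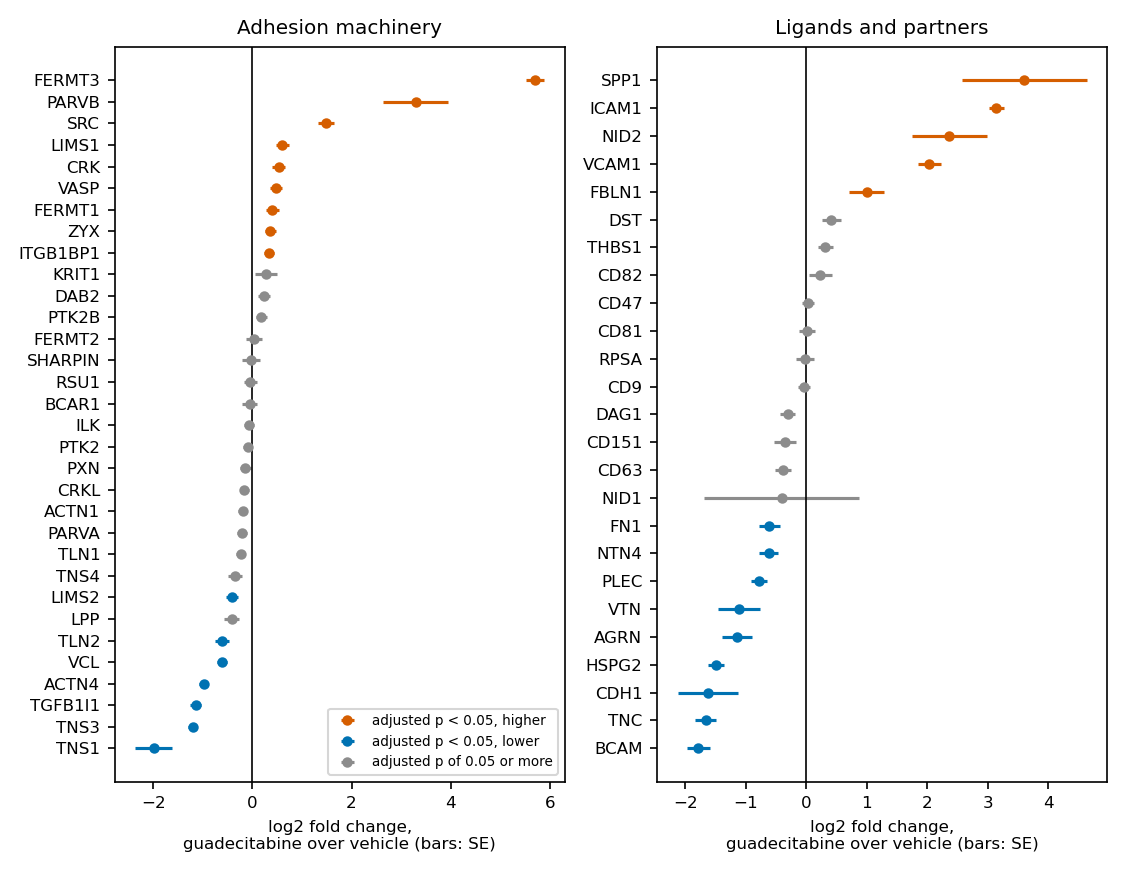
Log2 fold change of guadecitabine over vehicle with its standard error for the 32 tested genes of the adhesion machinery (left) and the 25 tested ligands and partners (right), in orange and blue for an adjusted p under 0.05 (edgeR). FERMT3 at 5.71 and ICAM1 at 3.14 stand far from 0 with small errors, and BCAM, TNC and HSPG2 are among the lowest on the right.

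Guadecitabine blocks the upkeep of methylation at CpG sites, so the 250 bases before the start of each deposited transcript were read from GRCh37, the assembly of hg19, and their CpG sites counted. The promoters of LAMB3 and ITGB7, 2 of the genes that rose, are shown to compare windows with few CpG sites, which are in capitals.
LAMB3 (chr1:209825821-209826070, minus strand): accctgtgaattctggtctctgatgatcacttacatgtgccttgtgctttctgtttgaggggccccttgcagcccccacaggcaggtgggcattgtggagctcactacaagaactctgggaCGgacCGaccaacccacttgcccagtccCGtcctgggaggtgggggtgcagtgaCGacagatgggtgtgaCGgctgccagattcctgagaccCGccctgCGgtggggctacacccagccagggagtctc
ITGB7 (chr12:53601092-53601341, minus strand): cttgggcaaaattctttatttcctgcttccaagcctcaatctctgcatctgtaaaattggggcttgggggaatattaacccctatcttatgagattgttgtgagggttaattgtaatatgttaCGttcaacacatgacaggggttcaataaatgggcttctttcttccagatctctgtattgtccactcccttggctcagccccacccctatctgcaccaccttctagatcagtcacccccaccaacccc
The LAMB3 window held 7 CpG sites and the ITGB7 window 1. Over all 17100 windows the median was 17 CpG sites, with quartiles of 7 and 25, and 98.0% held at least 1. The median was 11 CpG sites in the 8 genes that rose, 23 in the 7 that fell, 25.5 in the 12 that were tested and not called and 5 in the 11 that were not tested, and the genes that rose and those that fell overlapped widely. ITGB3, which rose, had 32 sites, and ITGA10, which fell, had 1. Methylation itself was not analysed here.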

How the data were processed

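MDA-MB-231 RNA from 3 vehicle and 3 guadecitabine libraries was analysed, with groups and replicate numbers taken from the labels. The authors prepared libraries with the TruSeq RNA kit, aligned the reads to hg19 with STAR 2.3.1z and deposited raw counts of reads in exons of RefSeq transcripts, counted with iRNA-seq, together with the exon length counted. How multiply matching reads and strand were handled is not given in the sources used here. The authors also deposited log2 values from DESeq2's regularized log transformation, a signal column of mean normalized counts, and their own log2 fold changes, test statistic (a score), p-values and adjusted p-values. None of these columns was used.

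The counts entered the quasi-likelihood test of edgeR 4.0.16 under R 4.3.3 (TMM, filterByExpr with a minimum count of 10, Benjamini-Hochberg adjustment over 13322 genes, threshold 0.05). Each standard error is the log2 fold change over the square root of its F statistic. Levels refer to a library of 17911210 counts, the mean total. Counts carry counting error beside the spread between replicates, and 0 pairs of libraries held identical counts. Exon overlaps came from GENCODE release 44 mapped to GRCh37, and deposited starts were shifted by 1 to count from 1.

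The members and gene lists were chosen with earlier results of these data known. Of the 38 genes, 1 is counted throughout and otherwise not reported here. The other genes are each accounted for, those with an adjusted p under 0.05 with the values of each library. From the adhesion machinery and from the ligands and partners the 4 largest rises and 4 largest falls are named, and the lists of markers served as checks; FERMT2, PTK2, PXN and the overlapping genes PELO and ZNF740 were named after their values were seen. Alternatives were the size factors and the Wald test of DESeq2 1.42.0, library totals only, other filters, a replicate block, a fold threshold of 2, subtraction of the background of vehicle replicate 3, and each library left out.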

Additional observations from a re-analysis of the deposited data

How the results depend on the processing

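Of the 15 integrin and laminin genes called, 15 kept their call and direction with DESeq2 size factors, with no filter, with the replicate block, with the background of vehicle replicate 3 subtracted and without vehicle replicate 3, and 14 did so with library totals only and with the Wald test of DESeq2. With at least 10 counts in every sample ITGA10 and ITGB7 were not tested, and the other 13 kept their calls. A fold threshold of 2 left 2 of these genes higher and 2 lower (ITGB3 among the former, ITGB4 and ITGA10 the latter), 3 adhesion machinery genes higher and 0 lower (edgeR, with 3 lower at an unadjusted p under 0.05), and 435 of all genes higher and 261 lower. With each library left out in turn, 5 to 11 integrin and laminin genes were higher and 6 to 8 lower, 4 to 7 adhesion machinery genes were higher and 6 to 8 lower, and 1706 to 3002 of all genes were higher and 1629 to 2575 lower. The 11 higher genes were those without vehicle replicate 3, which added ITGB6, LAMA1 and LAMA2, and the 5 were those without vehicle replicate 2; the lowest counts of all genes and the 4 higher adhesion machinery genes were those without guadecitabine replicate 3. The direction turned, in no case with a call, for ITGA2, ITGA6, ITGB1, LAMA1, LAMA2 and LAMC1, whose log2 fold changes ranged over the left-out libraries from -0.12 to 0.24, from -0.11 to 0.054, from -0.39 to 0.027, from -0.055 to 3.43, from -0.45 to 2.04 and from -0.045 to 0.086. The cause was not tested.

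Pairing by replicate number was not evident in the counts. After removal of group means, libraries that carry the same number correlated over genes at -0.0124 on average and those with other numbers at 0.00768. The same-number values were -0.0499, 0.0492 and -0.0366. The averages are tied to each other, because deviations from a group mean cancel within the group, so this check cannot decide whether the experiments were paired. With the replicate number as a block, 8 integrin and laminin genes were higher and 7 lower, 8 adhesion machinery genes were higher and 8 lower, and 2424 of all genes were higher and 2230 lower. CDH1 did not pass the test with the block (-1.56, adjusted p = 0.0638). The median log2 fold change of all genes tested was 0.0179 with TMM, 0.0122 with DESeq2 size factors and 0.0509 with library totals only. Depth limits the genes with few counts: at a few counts per library, a change in the 11 genes that were not tested was not detectable.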
